A study of Mus musculus with 6 samples.

Results

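The genes described here are 9 costimulatory receptors of T cells, namely Cd28, Icos, Tnfrsf4, Tnfrsf9, Tnfrsf18, Cd27, Cd40lg, Cd2 and Cd226. They were chosen by symbol, and all 9 were found among the 15686 genes of the deposited table. A T cell that meets its antigen through the T cell receptor also needs a signal from such receptors to divide, survive and make cytokines. CD28, ICOS, CD2 and CD226 belong to the immunoglobulin superfamily. OX40 (encoded by Tnfrsf4), 4-1BB (Tnfrsf9), GITR (Tnfrsf18) and CD27 belong to the tumour necrosis factor (TNF) receptor family and recruit TRAF adaptors, which lead to NF-kB. CD40 ligand, encoded by Cd40lg, is a TNF family protein by which helper T cells activate B cells and dendritic cells. These pathways are studied as targets in graft-versus-host disease, in which donor T cells attack the tissues of the host.

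RNA was sequenced from CD4+ T cells that had been isolated with a kit from mouse spleen after haematopoietic stem cell transplantation (HSCT), and the study set allogeneic against syngeneic transplants. There were 3 libraries labelled allogeneic, with a C57BL/6 donor and a Balb/c host (called allo-labelled here), and 3 labelled syngeneic, with donor and host both Balb/c (called syn-labelled). Hosts of both groups were thus of the same strain, and all 6 libraries carry the strain label Balb/c. The sources used here do not give the age of the mice, the conditioning, the time after transplantation or whether animals were pooled. No label says that each library is a separate animal, so p-values cover just the variation among these libraries, part or all of which may be technical. Values are FPKM, reads or fragments per kilobase of exon and per 1 M mapped, so levels of different genes are compared per length. The implied depth was 14.8 to 16.96 M reads a library.

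Strain labels and data went against each other. Of 9 genes that differ between C57BL/6 and BALB/c mice, 8 were on the side opposite to the labels. Ly6a, for example, is expressed more by T cells of C57BL/6 than of BALB/c mice, and its mean was 32.9 FPKM in allo-labelled and 329 FPKM in syn-labelled libraries. Among the 8, Ighg2c was at 16.3 against 9605 FPKM and Trbv26 at 0.402 against 56.5 FPKM in the same order. The gene that lay with the labels was Gbp2b, at 18.5 against 31.3 FPKM. Titles of the samples have an S where the label says allogeneic and an A where it says syngeneic. Directions below are therefore between libraries as labelled, and exchanged labels would turn every one of them.

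Genes of other cells moved with the groups as well. The summed level of 10 monocyte and macrophage markers was 1289 to 1340.3 FPKM in allo-labelled and 332 to 368 in syn-labelled libraries, and all 10 rose. So did all 9 granulocyte markers (3471 to 3610.2 against 1034 to 1177 FPKM) and all 8 measured red cell markers (386 to 407 against 5.19 to 6.07 FPKM). As deposited 40.7% of all genes tested rose and 26.6% fell. The 9 measured T cell markers all fell, their sum being 966 to 979 against 1825 to 1923 FPKM, and Cd4 was at 76.2 ± 2.72 against 183 ± 3.399 FPKM (SD, n = 3 each). The part of these other cells in the values of the receptors was not tested. Fewer T cells and less RNA per T cell cannot be told apart in bulk RNA. The receptors were for this reason also read relative to the 4 CD3 chains (Cd3d, Cd3e, Cd3g and Cd247), the signalling chains of the T cell receptor. Relative to these chains 6 of the 9 measured T cell markers were higher and 1 lower, against 86.2% and 4.13% of all genes tested.

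**Figure D1:**
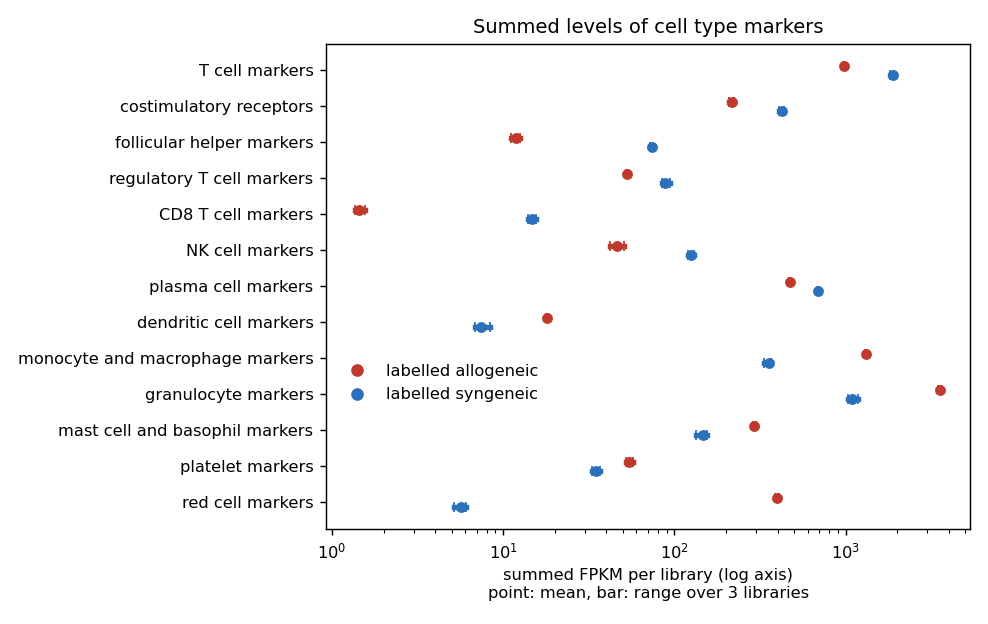
Summed FPKM of each list of marker genes on a log axis, with the mean of 3 libraries as a point and their range as a bar, for allo-labelled (red) and syn-labelled (blue) libraries. The costimulatory receptors summed to 208 to 222 FPKM in red and 406 to 437 in blue and lay on the same side as the T cell markers, while monocyte, granulocyte and red cell markers lay on the other.

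For FPKM as deposited, 8 of the 9 receptor genes fell in allo-labelled libraries and none rose (limma on log2(FPKM + 1), Benjamini-Hochberg adjusted p under 0.05 over 13235 genes tested). Of all genes tested 26.6% fell, 40.7% rose and 67.4% changed in either direction. The median log2 difference of the 9 genes was −0.97, against 0.09 for all genes. Icos fell most, by 1.71 on the log2 scale, and Tnfrsf9 did not pass the test. The groups did not overlap for any of the 9 genes, as was the case for 72.5% of all genes tested.

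**Figure D2:**
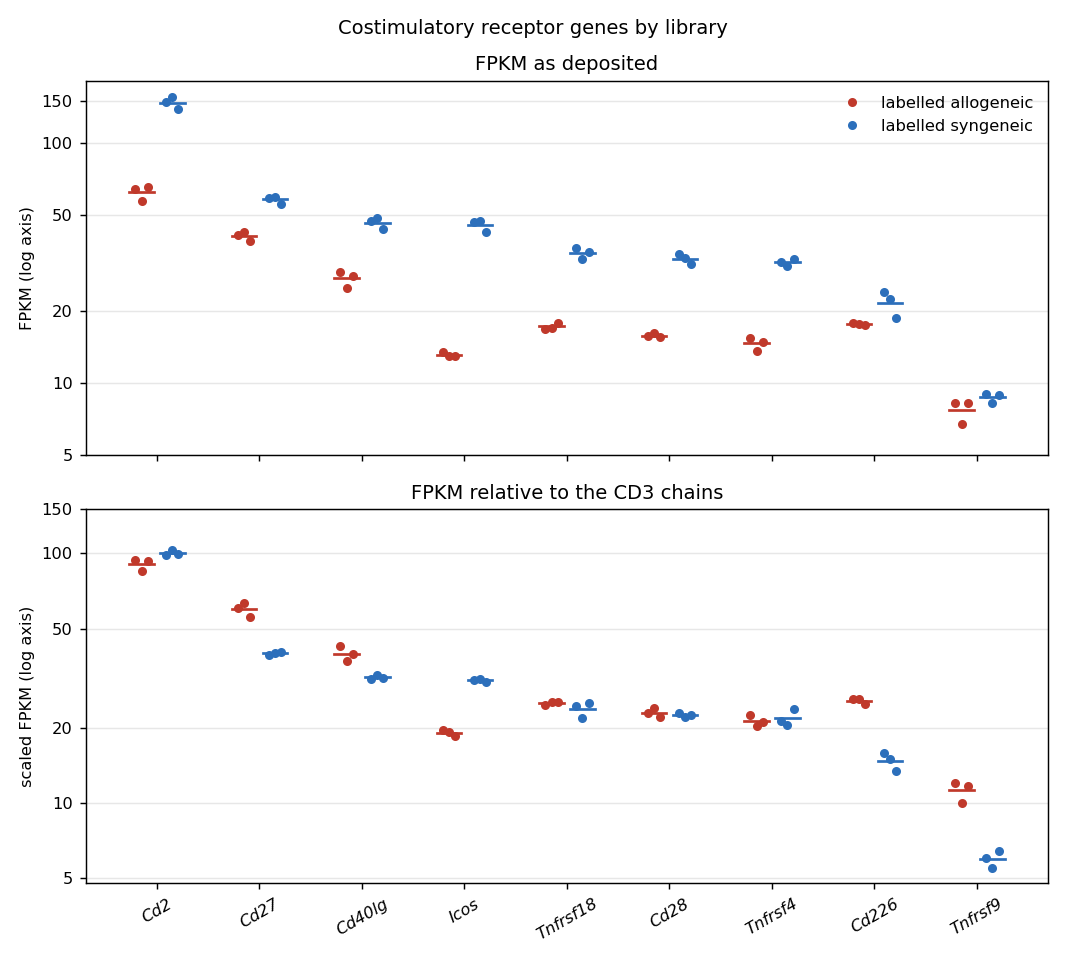
Level of each receptor gene in each of the 6 libraries on log axes, as FPKM as deposited (top) and as FPKM scaled so that the geometric mean of the 4 CD3 chains is equal in all libraries (bottom); points are libraries and lines are group means. In the upper panel every syn-labelled mean (blue) is above the allo-labelled mean (red), and in the lower panel Icos and Cd2 are higher in blue, Cd27, Cd40lg, Cd226 and Tnfrsf9 are higher in red, and the other 3 overlap.

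CD28 is the receptor that most naive T cells need beside the T cell receptor. Its gene (ENSMUSG00000026012, chromosome 1, 60716800 to 60773359, GRCm38) stood at 15.7, 16.1 and 15.5 FPKM in the allo-labelled libraries and at 34.3, 33.03 and 31.4 FPKM in the syn-labelled ones. The higher group was 2.09 times the lower (log2 difference −1.02, SE 0.0432, limma adjusted p = 2.92e-06), with 1485 to 1593 reads a library in the lower group. ICOS is a relative of CD28 that activated and follicular helper T cells carry, and its gene lies 205 kb away (ENSMUSG00000026009, chromosome 1, 60977927 to 61000320). Icos stood at 13.4, 12.98 and 12.96 FPKM in the allo-labelled and at 46.7, 47.1 and 42.3 FPKM in the syn-labelled libraries. The groups were far apart, with a ratio of 3.46 between their means (log2 difference −1.71, SE 0.0488, limma adjusted p = 6.70e-07). Icos lay below Cd28 in each allo-labelled library and above it in each syn-labelled one. The ratio of Icos to Cd28 was 0.855, 0.807 and 0.838 against 1.36, 1.42 and 1.35 (two-sided exact permutation p = 0.1, the smallest that 3 libraries against 3 allow).

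CD2 is an adhesion receptor of T cells that binds CD48 in mice. Cd2 was the most abundant of the 9 genes in both groups, at 64.2, 57.03 and 65.2 FPKM in the allo-labelled and 148, 155 and 138 FPKM in the syn-labelled libraries (chromosome 3, 101275899 to 101287939). It fell by 1.23 on the log2 scale (SE 0.0654, limma adjusted p = 7.49e-06), a ratio of 2.36 between the means. CD226 is an activating receptor for CD155. Cd226 had 17.8, 17.5 and 17.5 FPKM in the allo-labelled and 23.8, 22.4 and 18.6 FPKM in the syn-labelled libraries. Replicate 3 of the latter lay close to the former, and the log2 difference was −0.27 (SE 0.0861, limma adjusted p = 0.0272). Leaving out that library gave −0.37 (limma adjusted p = 0.0007095), and leaving out any other 1 of the 6 lost the call, with adjusted p from 0.0603 to 0.0802. Whole reads could be recovered from the FPKM of the other 8 genes but not from that of Cd226.

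Tnfrsf4 and Tnfrsf18 encode OX40 and GITR, which activated T cells induce and regulatory T cells carry at rest. They are neighbours (chromosome 4, 156013843 to 156016612 and 156026164 to 156028895), 9.55 kb apart. Tnfrsf4 stood at 15.4, 13.6 and 14.8 FPKM in the allo-labelled and at 31.9, 30.6 and 32.9 FPKM in the syn-labelled libraries. Tnfrsf18 stood at 16.8, 16.999 and 17.8 FPKM against 36.5, 32.7 and 35.02 FPKM. Both genes were at about double the level in the syn-labelled libraries, without overlap: Tnfrsf4 fell by 1.07 (SE 0.0535, limma adjusted p = 5.63e-06) and Tnfrsf18 by 0.97 (SE 0.04902, limma adjusted p = 5.87e-06) on the log2 scale. The ratio of Tnfrsf4 to Tnfrsf18 was 0.916, 0.802 and 0.831 against 0.875, 0.935 and 0.939, and the groups overlapped (exact permutation p = 0.2). An antisense gene, Gm16008, shares 414 bases with exons of Tnfrsf18, and since the use of strand in counting is not stated, reads of the pair cannot be told apart. Gm16008 had means of 0.704 and 2.02 FPKM.

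Tnfrsf9 encodes 4-1BB, which T cells induce on activation, and its gene lies 5.07 Mb from Tnfrsf4 (chromosome 4, 150914562 to 150946102). Its level was the lowest of the 9 genes in both groups, at 8.21, 6.72 and 8.202 FPKM in the allo-labelled and 8.97, 8.25 and 8.89 FPKM in the syn-labelled libraries. The highest of the former lay just below the lowest of the latter. The log2 difference was −0.16 (95% interval −0.35 to 0.03, limma adjusted p = 0.122) with 296 to 414 reads a library. Other scalings of the libraries moved it past the test, among them quantile normalization (−0.27, limma adjusted p = 0.0188) and equal upper quartiles (−0.25, limma adjusted p = 0.0303).

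The promoters of the neighbours Tnfrsf4 and Tnfrsf18, which fell together, are shown beside those of Tnfrsf9, which did not pass the test. The RefSeq promoter table held 5 windows for 4 of the 9 genes (Tnfrsf4, Tnfrsf18, Tnfrsf9 and Cd27). Each window is 300 bases, 250 before and 50 after an annotated start in build GRCm38.p6, on the plus strand for those printed and written 5′ to 3′. Capitals mark matches, on either strand, to motifs of NF-kB (GGGA, any base, TT, any base, CC), AP-1 (TGANTCA), NFAT (TGGAAA) and RUNX (TGTGGT), and no 2 matches overlap.
Tnfrsf4, chr4:156013445-156013744: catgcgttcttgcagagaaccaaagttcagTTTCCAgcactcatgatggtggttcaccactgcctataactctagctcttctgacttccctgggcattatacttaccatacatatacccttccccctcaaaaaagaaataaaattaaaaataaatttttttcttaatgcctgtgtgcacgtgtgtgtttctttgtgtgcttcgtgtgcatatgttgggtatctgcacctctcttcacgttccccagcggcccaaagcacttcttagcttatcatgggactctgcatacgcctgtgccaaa
Tnfrsf18, chr4:156026072-156026371: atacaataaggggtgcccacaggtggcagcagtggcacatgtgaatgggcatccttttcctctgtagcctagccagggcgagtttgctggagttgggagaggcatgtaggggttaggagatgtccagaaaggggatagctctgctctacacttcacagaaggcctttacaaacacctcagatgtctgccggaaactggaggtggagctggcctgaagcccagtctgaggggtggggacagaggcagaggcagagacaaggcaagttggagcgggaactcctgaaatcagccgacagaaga
Tnfrsf9, first start, chr4:150919905-150920204: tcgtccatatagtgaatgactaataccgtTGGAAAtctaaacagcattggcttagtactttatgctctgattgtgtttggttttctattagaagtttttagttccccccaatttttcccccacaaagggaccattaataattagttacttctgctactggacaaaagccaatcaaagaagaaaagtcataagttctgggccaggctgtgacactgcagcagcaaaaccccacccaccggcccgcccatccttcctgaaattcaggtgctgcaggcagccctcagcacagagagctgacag
Tnfrsf9, second start, chr4:150927749-150928048: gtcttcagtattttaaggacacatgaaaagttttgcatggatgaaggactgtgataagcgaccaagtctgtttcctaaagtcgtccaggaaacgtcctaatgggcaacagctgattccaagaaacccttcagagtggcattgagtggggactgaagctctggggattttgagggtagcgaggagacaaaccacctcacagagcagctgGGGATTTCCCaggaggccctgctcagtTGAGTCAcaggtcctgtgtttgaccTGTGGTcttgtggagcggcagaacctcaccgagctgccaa

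The second Tnfrsf9 window held an NF-kB match at bases 209 to 218, an AP-1 match at 236 to 242 and a RUNX match at 261 to 266, counted from the 5′ end. The first Tnfrsf9 window held an NFAT match at bases 30 to 35, and the Tnfrsf4 window held one at 31 to 36 on the minus strand. The Tnfrsf18 and Cd27 windows held none of the 4 motifs. Of all 32851 windows in the table, 1.2% held the NF-kB motif, 7.81% the AP-1 motif, 21.4% the NFAT motif and 16.8% the RUNX motif. The GENCODE start of Tnfrsf4 lies after the end of its RefSeq window, and that of Tnfrsf9 before both of its windows. A match describes these letters only, and FPKM per gene does not tell which start was used.

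CD27 is carried by resting T cells and binds CD70. Cd27 stood at 41.3, 42.5 and 38.96 FPKM in the allo-labelled and at 58.8, 59.7 and 55.7 FPKM in the syn-labelled libraries (chromosome 6, 125232622 to 125237010), and it fell by 0.50 on the log2 scale (SE 0.044995, limma adjusted p = 8.23e-05). CD40 ligand is the member that acts on other cells. Cd40lg was at 29.05, 24.8 and 27.8 FPKM against 47.02, 48.7 and 43.7 FPKM (chromosome X, 57212143 to 57224042), and it fell by 0.75 (SE 0.0673, limma adjusted p = 7.76e-05). Neither gene overlapped between groups. The ratio of Cd40lg to Cd4 was 0.389, 0.333 and 0.3501 in the allo-labelled and 0.256, 0.262 and 0.244 in the syn-labelled libraries, and so was higher in the former (exact permutation p = 0.1, adjusted p = 0.136 over 15 pairs).

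The order of levels differed between the groups in the places of Icos and Cd226, which were exchanged. In the syn-labelled libraries the order from the highest mean FPKM was Cd2, Cd27, Cd40lg, Icos, Tnfrsf18, Cd28, Tnfrsf4, Cd226 and Tnfrsf9. Within it Cd40lg overlapped with Icos, Tnfrsf18 with Cd28 and Cd28 with Tnfrsf4. In the allo-labelled libraries the order was Cd2, Cd27, Cd40lg, Cd226, Tnfrsf18, Cd28, Tnfrsf4, Icos and Tnfrsf9, where the neighbours that overlapped were Cd226 and Tnfrsf18. Shares of the summed FPKM of the 9 genes are not altered by any scaling of a library. Icos made up 6.06% ± 0.154 against 10.6% ± 0.185 of that sum (allo-labelled against syn-labelled, SD, n = 3 each), and Cd2 made up 28.7% ± 1.24 against 34.4% ± 0.856. Higher shares in the allo-labelled libraries were those of Cd27 (18.9% ± 1.32 against 13.6% ± 0.117), Cd40lg (12.6% ± 0.597 against 10.9% ± 0.213), Cd226 (8.15% ± 0.2397 against 5.05% ± 0.453) and Tnfrsf9 (3.56% ± 0.288 against 2.04% ± 0.151). The share of Tnfrsf4 (6.76% ± 0.203 against 7.47% ± 0.562) did not overlap either, while those of Cd28 and Tnfrsf18 did. For the 7 genes without overlap the exact permutation p was 0.1, the smallest possible. Shares of the same sum depend on each other. No figure over all genes was worked out for shares. Among ratios of 1 of the 9 genes to another tested gene, which are a different measure, 84.3% did not overlap.

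Relative to the CD3 chains the 9 genes split. The log2 differences of the chains themselves, as deposited, were −1.25 for Cd3d, −1.20 for Cd247, −0.93 for Cd3e and −0.88 for Cd3g, all past the test. On the scale set by them, 4 of the 9 receptor genes were higher in allo-labelled libraries, 2 were lower and 3 did not pass the test. That scaling moves all genes together: 90.3% of genes tested differed, 86.2% were higher and 4.13% lower, with a median of 1.01. The median of the 9 receptors was 0.07 on that scale. The groups did not overlap for 6 of the 9, against 90.2% of all genes.

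Icos remained lower, with scaled FPKM of 19.6, 19.3 and 18.5 against 31.2, 31.4 and 30.5 (log2 difference −0.67, SE 0.0469, limma adjusted p = 2.87e-06). Cd2 was lower as well, at 93.8, 84.8 and 93.2 against 98.7, 103 and 99.4 (−0.15, SE 0.0535, limma adjusted p = 0.0289). The call of Cd2 held in 13 of 20 settings. It was lost without replicate 2 of the allo-labelled libraries, its lowest value (−0.10, limma adjusted p = 0.105), and without replicate 2 of the syn-labelled ones, its highest (−0.13, limma adjusted p = 0.0824). It was also lost without the variance trend (limma adjusted p = 0.0579), with the replicate number as a block (0.0727), without Cd3e (0.122) or Cd3g (0.173) among the chains, and relative to Cd4, where its sign turned (0.03).

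Tnfrsf9 was higher on the same scale, at 11.99, 10.001 and 11.7 against 5.99, 5.51 and 6.41 (log2 difference 0.81, SE 0.0853, limma adjusted p = 3.42e-05). Cd226 stood at 26.01, 26.1 and 24.98 against 15.9, 14.97 and 13.4 (0.76, SE 0.0686, limma adjusted p = 1.28e-05). Cd27 had 60.3, 63.2 and 55.7 against 39.3, 39.9 and 40.2 (0.57, SE 0.05597, limma adjusted p = 2.17e-05). These 3 genes lay clearly apart between groups. Cd40lg was also higher, at 42.4, 36.9 and 39.7 against 31.4, 32.6 and 31.5 (0.31, SE 0.0596, limma adjusted p = 0.00141). All 4 differences were below the median of all genes on this scale.

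For Cd28 the log2 difference was 0.03 (95% interval −0.09 to 0.14, limma adjusted p = 0.645), for Tnfrsf4 −0.03 (−0.19 to 0.13, limma adjusted p = 0.681) and for Tnfrsf18 0.07 (−0.07 to 0.22, limma adjusted p = 0.282). Groups overlapped in all 3. For Cd28 and Tnfrsf4 the sign depended on single libraries: without replicate 2 of the allo-labelled libraries they were at −0.0033 and 0.0027.

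**Figure D3:**
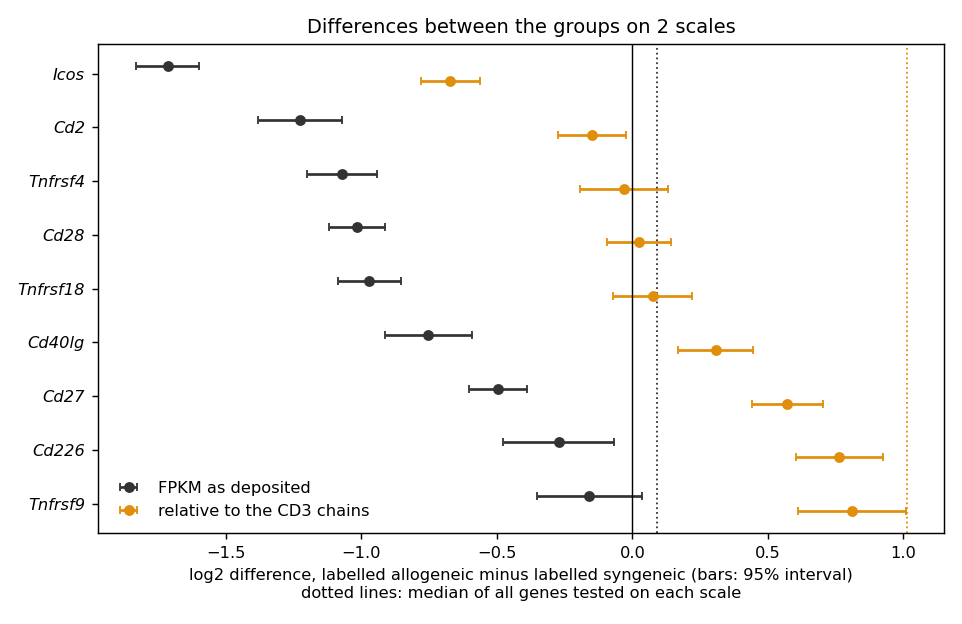
Log2 difference of each receptor gene, labelled allogeneic minus labelled syngeneic, with its 95% interval from limma, for FPKM as deposited (black) and relative to the CD3 chains (orange). Dotted lines give the median of all genes tested on each scale, 0.09 and 1.01, and all 9 genes lie to the left of the line of their scale.

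Other T cell references shifted all 9 genes by nearly the same amount, since each multiplies a library by 1 factor, and so moved the zero. Icos was lower and Cd27, Cd226 and Tnfrsf9 were higher under each of the 4 references tried, which were the CD3 chains, Cd4, the constant segments Trac, Trbc1 and Trbc2, and the T cell genes Cd5, Cd6 and Lat. Icos ran from −0.89 (Cd5, Cd6 and Lat) to −0.50 (Cd4), and Tnfrsf9 from 0.61 to 0.97 in the same order. The direction of Cd28 depended on the reference: it was at 0.19 relative to Cd4 (limma adjusted p = 0.00998), −0.15 relative to the constant segments (0.0158) and −0.19 relative to Cd5, Cd6 and Lat (0.0212). Tnfrsf18 was at 0.24 relative to Cd4 and −0.14 relative to Cd5, Cd6 and Lat, and passed the test in both. Cd40lg passed the test relative to the CD3 chains and Cd4, and was at 0.13 and 0.08 with the other references (limma adjusted p = 0.119 and 0.302).

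**Figure D4:**
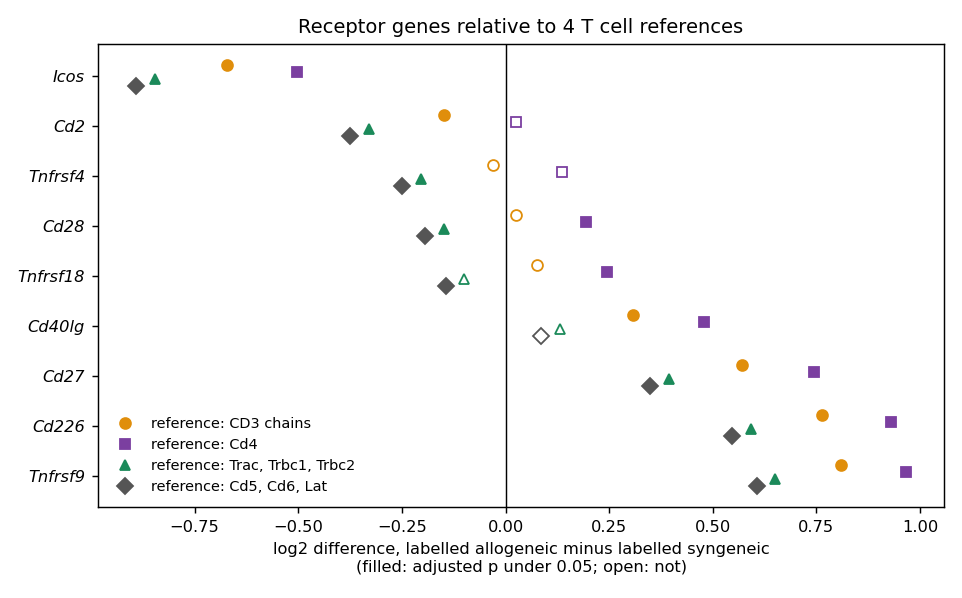
Log2 difference of each receptor gene, labelled allogeneic minus labelled syngeneic, after scaling each library to 1 of 4 T cell references (symbols); filled symbols passed limma with an adjusted p under 0.05. Icos lies left of 0 and Cd27, Cd226 and Tnfrsf9 right of 0 with every reference, while Cd28, Tnfrsf4, Tnfrsf18 and Cd2 lie on both sides.

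Ratios between a pair of the genes within a library need no reference. Of the 36 pairs among the 9 genes, 29 had ratios whose groups did not overlap, while the same held for 84.3% of all ratios between 1 of the 9 and another tested gene. Icos was lower relative to each of the other 8 genes, by log2 differences from −0.55 relative to Cd2 to −1.61 relative to Tnfrsf9, without overlap in any pair. The geometric mean of the ratio of Icos to Tnfrsf9 was 1.71 in allo-labelled and 5.21 in syn-labelled libraries. The 7 pairs that overlapped were Tnfrsf4 with Cd28, Tnfrsf18 and Cd2, Tnfrsf18 with Cd28 and Cd40lg, and Tnfrsf9 with Cd27 and Cd226. In pairs without overlap the exact permutation p was 0.1, and 0.124 after adjustment over the 36 pairs, so the design cannot pass a threshold of 0.05 here.

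**Figure D5:**
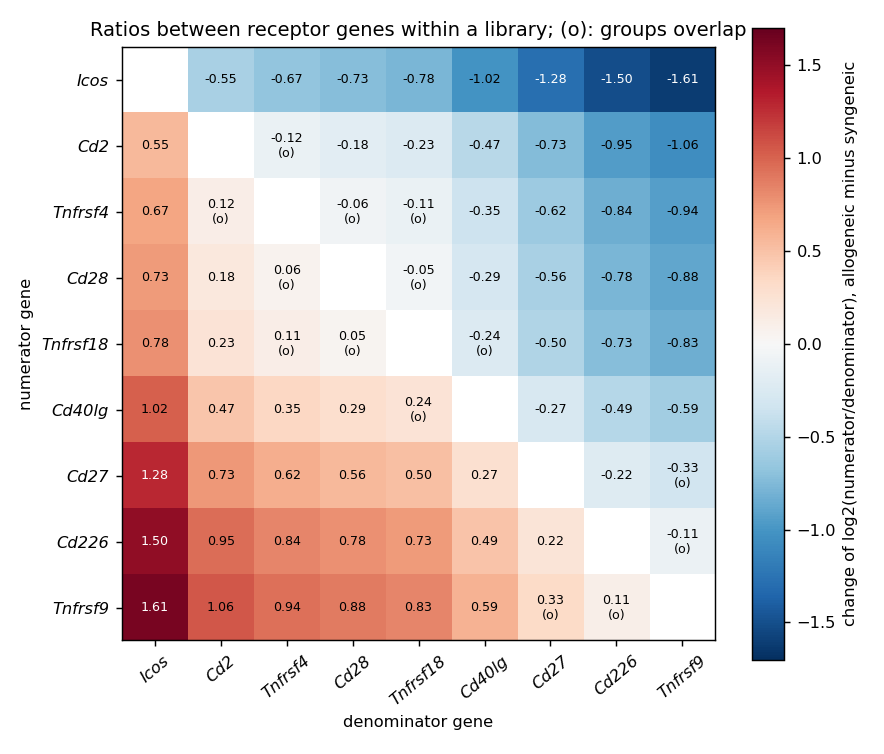
Change in the log2 ratio of the row gene to the column gene, labelled allogeneic minus labelled syngeneic, for all pairs of the 9 genes, ordered by their difference as deposited; (o) marks pairs whose groups overlap. The Icos row is negative throughout, from −0.55 to −1.61, and Cd28, Tnfrsf4 and Tnfrsf18 form a block near 0.

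Counter-receptors, most of them inhibitory, mostly fell as well. Of 6 tested 5 fell and 1 rose as deposited (median −1.75), and relative to the CD3 chains there were 4 lower and 2 higher (median −0.71). Of all genes tested 26.6% fell and 40.7% rose as deposited, and 4.13% were lower and 86.2% higher relative to the CD3 chains. Ctla4, the inhibitory receptor for the CD28 ligands, lies between Cd28 and Icos (60887000 to 60915832) and stood at 16.8 ± 0.528 against 61.7 ± 4.602 FPKM. The ratio of Cd28 to Ctla4 was 0.919, 0.996 and 0.904 in the allo-labelled and 0.513, 0.5605 and 0.531 in the syn-labelled libraries. Tigit, which competes with CD226 for CD155, fell by 2.81, and Pdcd1, the receptor PD-1, by 3.06 on the log2 scale. The ratio of Cd226 to Tigit was 0.935, 0.933 and 1.02 against 0.173, 0.173 and 0.135. Relative to Cd96, another receptor for CD155, Cd226 was at 0.862, 0.825 and 0.782 against 0.676, 0.597 and 0.597. The counter-receptor that rose was Cd244, which binds CD48 as CD2 does, at 4.49 ± 0.475 against 1.53 ± 0.155 FPKM. The ratio of Cd2 to Cd244 was 12.8, 13.9 and 15.02 against 109, 97.2 and 83.8. None of these 4 ratios overlapped between groups (exact permutation p = 0.1, adjusted p = 0.136 over 15 pairs). Of those 15 pairs 11 did not overlap. Among all ratios of a receptor gene to another tested gene 84.3% did not overlap, so lack of overlap does not set these pairs apart.

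Ligands of the receptors are known mainly from antigen-presenting cells. Of 8 tested 6 fell and 2 rose as deposited (median −0.65), and relative to the CD3 chains there were 1 lower and 4 higher (median 0.25). As deposited 26.6% of all genes tested fell and 40.7% rose. Relative to the CD3 chains 4.13% of all genes were lower and 86.2% higher (median 1.01). Cd86 and Cd80 encode the ligands of CD28 and, as deposited, moved in opposite directions. Cd86 was at 7.63 ± 0.694 against 2.09 ± 0.317 FPKM and Cd80 at 3.12 ± 0.07999 against 7.03 ± 0.432 FPKM. Relative to the CD3 chains Cd86 was higher by 2.32 on the log2 scale, and Cd80 did not pass the test (−0.07, limma adjusted p = 0.434). Cd86 rose beside the monocyte and macrophage markers given above, whose part in it was not tested. Cd70, the ligand of CD27, was at 0.124 ± 0.0436 against 2.51 ± 0.944 FPKM. Cd48, the ligand of CD2, was at 145 ± 5.697 against 125 ± 10.8 FPKM (log2 difference 0.22, limma adjusted p = 0.0224). That call was lost with equal upper quartiles (0.12, limma adjusted p = 0.146) and without replicate 1 or 2 of the allo-labelled or replicate 1 of the syn-labelled libraries (limma adjusted p = 0.0566, 0.0741 and 0.0541). Cd40, the partner of CD40 ligand, was under the level for testing at 0.597 and 0.116 FPKM.

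The balance of the lists that follow depended on the scale, so counts relative to the CD3 chains stand beside those as deposited, to be read against the shares of all genes given above for each scale. Of 19 genes of CD28 and CD2 signalling 12 fell and 4 rose as deposited (median −0.41), while relative to the CD3 chains the list had 3 lower and 16 higher (median 0.63). The values of single genes here are as deposited. Prkcq, the kinase that carries the CD28 signal to NF-kB, fell by 1.30 and the adaptor gene Sh2d2a by 1.29. Grb2, an adaptor that binds CD28, rose by 0.39 and Cd2ap, which binds the tail of CD2, by 0.46 on the log2 scale. Of 17 genes of TNF receptor signalling 13 fell and 2 rose as deposited (median −0.25), and relative to the CD3 chains there were 0 lower and 13 higher (median 0.80). Traf1, an adaptor of these receptors, fell by 0.97 and Tnfaip3, a feedback inhibitor of NF-kB, by 0.99, whereas Siva1, whose product binds CD27, rose by 1.04. Traf3 (0.16, limma adjusted p = 0.0358) lost its call under other scalings and without any 1 library other than replicate 3 of the syn-labelled ones (limma adjusted p from 0.0587 to 0.111).

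Among 16 tested genes that costimulation is known to raise, 11 fell and 4 rose as deposited (median −0.40), with 5 lower and 11 higher (median 0.64) relative to the CD3 chains. The transcription factor genes Irf4 and Batf were at −1.44 and −1.34, while the cell cycle kinase gene Cdk4 was at 1.21 and the survival gene Birc5 at 0.54 on the log2 scale. Irf4 is also 1 of the 6 plasma cell markers below, all of which fell as deposited. Which cells gave these transcripts was not tested. In 12 further costimulatory receptors tested 10 fell and 1 rose as deposited (median −0.44), with 1 lower and 8 higher (median 0.45) on the scale of the CD3 chains. Slamf6 was at −1.52, Tnfrsf25 at −0.90 and Cd81, which many cell types carry, at 1.05.

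Markers of T cell subsets went in different directions. Foxp3, the regulatory T cell factor, stood at 15.6 ± 0.203 against 5.99 ± 0.227 FPKM, while Tnfrsf4 and Tnfrsf18 fell, so that their ratios to it did not overlap between groups. The ratio of Tnfrsf4 to Foxp3 was 0.981, 0.887 and 0.941 in the allo-labelled and 5.11, 5.19 and 5.64 in the syn-labelled libraries. For Tnfrsf18 it was 1.07, 1.11 and 1.13 against 5.84, 5.55 and 6.01. Of the 5 regulatory T cell markers 2 rose (Foxp3 and Ikzf2) and 2 fell (Ctla4 and Il2ra), and the 5 follicular helper markers all fell, as deposited. Relative to the CD3 chains 4 of the regulatory markers were higher and 1 lower, with Il2ra at 0.39, and 3 of the follicular helper markers were lower and 1, Bcl6, was higher at 0.32. Cxcr5 is the chemokine receptor of follicular helper cells, and the ratio of Icos to Cxcr5 was 24.99, 12.7 and 17.8 against 18.8, 17.6 and 17.6, with overlap. Cxcr5 itself was low, at 0.761 ± 0.244 against 2.52 ± 0.135 FPKM. The CD8 T cell marker Cd8b1 was at 1.37 ± 0.146 against 11.8 ± 0.9704 FPKM. The ratio of Tnfrsf9 to Cd8b1 was 5.35, 5.38 and 6.15 against 0.765, 0.762 and 0.696, and that of Cd226 to Cd8b1 was 11.6, 14.03 and 13.1 against 2.03, 2.07 and 1.45, both without overlap.

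B cells can carry CD27 and, in mice, CD2. The B cell gene Ms4a1 was low in both groups, at 0.603 FPKM in allo-labelled and 0.102 in syn-labelled libraries, while Cd79a was at 7.64 ± 1.09 against 11.1 ± 0.761 FPKM. The ratio of Cd27 to Cd79a overlapped between groups (geometric means 5.39 and 5.25), and that of Cd2 to Cd79a did not (8.18 and 13.2). All 6 plasma cell markers fell as deposited, with sums of 468 to 481 against 680.01 to 701 FPKM. Of 5 NK cell markers 3 fell and 2 rose, with sums of 42.3 to 50.5 against 119.95 to 129.6. Most of these sums was Gzma, which fell (31.6 ± 2.13 against 118 ± 4.68 FPKM). The 2 that rose were Ncr1 (9.29 ± 2.04 against 0.349 ± 0.0702) and Eomes (2.93 ± 0.28 against 1.26 ± 0.0981). All 5 mast cell and basophil markers rose (286 to 298 against 134 to 156), as did 3 of 5 platelet markers (51.9 to 56.9 against 32.9 to 36.7). Of 4 tested dendritic cell markers 2 rose and 1 fell (17.9 to 18.3 against 6.82 to 8.35). Relative to the CD3 chains the plasma cell list had 2 lower and 2 higher, and the NK cell list 1 lower and 2 higher. On that scale all 5 mast cell and basophil and all 5 platelet markers were higher, as were 3 of the 4 dendritic cell markers. Of all genes tested 26.6% fell and 40.7% rose as deposited, with 4.13% lower and 86.2% higher relative to the CD3 chains. The part of B cells and of the cells of these lists in the values of the receptor genes was not tested.

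The genes closest in pattern to each receptor were found by the root mean square difference of log2(FPKM + 1), each gene centred on its own mean, over the 6 libraries and 10765 named genes. Closest to Cd28 was Gbp7 (0.0121), an interferon-induced GTPase gene, and to Icos it was Btla (0.05702), which encodes an inhibitory receptor. For Tnfrsf4 it was Dgka (0.0313), a kinase gene that restrains the T cell receptor signal, for Tnfrsf18 Slfn5 (0.0354) and for Tnfrsf9 Rasal1 (0.0267). For Cd27 it was Fyco1 (0.0287), for Cd40lg St6gal1 (0.0179), for Cd226 Pick1 (0.0468) and for Cd2 Akap12 (0.02397). Next for Cd2, and named here after its value was seen, came Cd3d at 0.0387. With 2 groups that lie far apart, this likeness rests mainly on the size of the difference between them.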

How the data were processed

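The authors deposited FPKM of 15686 genes in 6 libraries, in a table that pairs gene identifiers with symbols. Per the labels' protocols, ribosomal RNA was depleted from total RNA. The submitters' processing notes name limma, and the sources used here give no aligner, counter, build or annotation. FPKM times the merged exon length in GENCODE M21 (GRCm38) came out as whole numbers of reads, within 0.05 reads, for 14571 genes (92.9%), which gave the implied depths. Coordinates are from GENCODE M21, where 15663 identifiers were found, and promoters from RefSeq.

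Groups follow the characteristics labels. The 13235 genes that reached 1 FPKM in 3 or more libraries entered limma 3.58.1 (R 4.3.3) as log2(FPKM + 1), with a trend in the prior variance, two-sided tests and Benjamini-Hochberg adjustment (threshold 0.05). This scale understates the change of low genes. The fit was repeated after the 4 CD3 chains were brought to 1 common geometric mean in all libraries. The limma step without that scaling was also run on simulated reads in which no genes or few genes changed. That run does not cover data in which most genes differ. Ratios and shares were compared by two-sided exact permutation over libraries (scipy 1.17.1), which cannot go below 0.1. Python 3.11.15, pandas 2.3.3 and matplotlib 3.10.9 were used for tables and figures.

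The receptors and lists were chosen with earlier results of these data known. Named genes were taken from the 9 receptors, the CD3 chains, the strain check genes and the genes of the 15 fixed ratios. They were also taken from the 2 largest falls and rises past the test in each list and the closest gene to each receptor. Not every gene that this rule allows is named, and Bcl6 was named outside it. Cd40, Ms4a1 and Gm16008 were named in addition after their values were seen. Alternatives were other library scalings, filters and pseudocounts (0.1 and 5), no trend, voom on recovered reads, the replicate number as a block, each library left out, other T cell references, each CD3 chain left out and, added after the data were seen, subtraction of the median difference.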

Additional observations from a re-analysis of the deposited data

How the results depend on the processing

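Counts of all genes called stayed within 1.5 times under every alternative run, on both scales. The balance as deposited moved from 5389 higher and 3525 lower to 4655 and 4312 after quantile normalization, 4583 and 4311 with equal upper quartiles, 4517 and 4334 when rescaled without immunoglobulin and red cell genes and 4556 and 4367 with the median difference subtracted. As deposited, leaving out 1 library left 7 or 8 receptors lower and 0 higher, and the scalings that moved Tnfrsf9 past the test left 9 lower. Relative to the CD3 chains leaving out 1 library left 4 higher and 1 or 2 lower. The lower ones also came to 1 without the trend, with the replicate block, with Cd4 as the reference and with Cd3e or Cd3g taken out of the CD3 chains, each time through the lost call of Cd2. They came to 4 with Trac, Trbc1 and Trbc2 and to 5 with Cd5, Cd6 and Lat as the reference. Replicate numbers did not pair the libraries: deviations of same-numbered libraries correlated at −0.03101, 0.0159 and −0.05401, and not every library correlated best with its own number. The replicate block gave 8673 calls as deposited and 11989 relative to the CD3 chains, against 8914 and 11950 without it, and of the receptor calls it changed that of Cd2 (limma adjusted p = 0.0727).

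Relative to the CD3 chains, directions turned for genes near 0. Cd28 ranged from −0.00332 to 0.0516 with 1 library left out, −0.00332 being the value without replicate 2 of the allo-labelled libraries, and came to −0.0309 without Cd3d, −0.0259 without Cd247, −0.148 with Trac, Trbc1 and Trbc2 and −0.194 with Cd5, Cd6 and Lat. Tnfrsf4 ranged from −0.07504 to 0.0273 with 1 library left out, with 0.0027004 without replicate 2 of the allo-labelled and 0.0273 without replicate 3 of the syn-labelled libraries, and came to 0.137 with Cd4, 0.0146 without Cd3e and 0.0303 without Cd3g. Tnfrsf18 came to −0.0991 with Trac, Trbc1 and Trbc2 and −0.145 with Cd5, Cd6 and Lat, and Cd2 to 0.0253 with Cd4. A changed reference moves the zero by construction, and otherwise the cause was not tested. The log2 ratio difference of Cd27 to Cd79a was −0.005598 with a pseudocount of 1 and ranged from −0.0391 to 0.135 with 1 library left out, turning without replicate 3 of either group. That of Icos to Cxcr5 was −0.709 with a pseudocount of 1, against −0.0156 without one, and ranged from −0.259 to 0.228 with 1 library left out, turning without replicate 2 of the allo-labelled or replicate 1 of the syn-labelled libraries. The 29 ratios among receptors without overlap became 30 to 32 with 1 library left out. Tnfrsf9 and Tnfrsf4 had the fewest reads of the 8 receptors with recovered reads.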
